A study of Mus musculus with 2 samples.

Results

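Long noncoding RNA (lncRNA) promoters were examined in open chromatin maps of the mouse urinary bladder. They were the 5' ends of autosomal GENCODE M21 genes of type lincRNA, antisense or processed_transcript that lay more than 2 kb from every protein-coding transcript start, and each was taken with 500 bp on either side. Of 8875 autosomal genes of these types, 7038 met the distance rule and 1837 did not. The 7038 promoters belonged to 4761 lincRNA, 1844 antisense and 433 processed_transcript genes. They were set against the promoters of 20807 autosomal protein-coding genes and of all 51229 autosomal genes. Some of the windows overlapped each other, so the 7038 promoters stood for 6896 separate stretches of DNA.

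DNase-seq had been carried out on bladder tissue from 2 female B6CASTF1/J mice aged 36 days, the first-generation hybrid of a C57BL/6J and a CAST/EiJ parent. Numbered 5 and 6 in the labels, the animals are replicates 1 and 2. Neither carried a stated allele or treatment, and no other tissue or condition was included. The labels give both animals the same strain-level donor record, and only their separate biosamples and numbers mark them as distinct. A single group of 2 animals allows no test between conditions, and replicate error here means how far these animals lay apart. Reads from a hybrid animal were placed on the mm10 build, which represents the C57BL/6J parent.

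Most lncRNA genes are transcribed by RNA polymerase II from promoters that need to be cleared of nucleosomes, as those of protein-coding genes do. DNase I cuts such nucleosome-free DNA preferentially, and a bound protein leaves a short protected stretch, a footprint, within the cut region. Many lncRNAs are made in few cell types, while others, such as the hosts of small nucleolar RNAs or Malat1, are made in most tissues. In bladder, promoters of the lining epithelium (the urothelium), smooth muscle, fibroblasts, vessels and immune cells are all sampled together.

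The deposited lists held 117773 peaks and 280105 footprints in replicate 1, and 102671 peaks and 247833 footprints in replicate 2. A peak height is the authors' own signal value, and its scaling is not given in the sources used here. The finest step between heights was 0.00789 for replicate 1 and 0.00849 for replicate 2. The tissue label was checked at the promoters of marker genes. A peak was present in both animals at 9 of 9 urothelial, 6 of 6 smooth muscle, 4 of 5 fibroblast and 3 of 4 endothelial markers, against 1 of 5 leukocyte, 0 of 3 liver and 1 of 2 neuronal markers. Among all protein-coding promoters the share was 60.9%, so an open marker by itself says little of the tissue. The urothelial markers included Upk2 (heights 3.32 and 1.91) and Krt5 (1.71 and 0.629), and the absent ones included Pecam1, Ptprc and Alb.

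The sequences of several lncRNA promoters are given first because the values below return to them. Malat1 and Neat1 are abundant nuclear RNAs, Snhg8, Snhg5 and Snhg15 carry small nucleolar RNAs, Kcnq1ot1 and Meg3 are imprinted, and Mir22hg and 6720427I07Rik carry microRNAs with the highest promoters of their kind. Each run is 200 bases on the strand of the gene, 5' to 3', from GRCm38 (mm10). Capitals mark bases that lay in footprints of both animals. The regions are chr19:5802574-5802773 for Malat1, chr19:5845430-5845629 for Neat1, chr3:123508339-123508538 for Snhg8, chr9:88522836-88523035 for Snhg5, chr11:6528807-6529006 for Snhg15, chr7:143296602-143296801 for Kcnq1ot1 and chr13:48546519-48546718 for 6720427I07Rik, all on the minus strand. Meg3 at chr12:109540900-109541099 and Mir22hg at chr11:75461438-75461637 are on the plus strand.
Malat1: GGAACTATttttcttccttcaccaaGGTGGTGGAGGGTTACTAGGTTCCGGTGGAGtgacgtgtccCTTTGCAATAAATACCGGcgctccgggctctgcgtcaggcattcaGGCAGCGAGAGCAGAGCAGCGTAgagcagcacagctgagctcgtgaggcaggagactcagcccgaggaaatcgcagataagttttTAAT
Neat1: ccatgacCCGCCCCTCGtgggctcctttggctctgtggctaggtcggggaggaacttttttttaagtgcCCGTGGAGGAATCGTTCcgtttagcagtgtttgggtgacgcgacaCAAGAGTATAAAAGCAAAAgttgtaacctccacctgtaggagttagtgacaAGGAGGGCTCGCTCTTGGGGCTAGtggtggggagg
Snhg8: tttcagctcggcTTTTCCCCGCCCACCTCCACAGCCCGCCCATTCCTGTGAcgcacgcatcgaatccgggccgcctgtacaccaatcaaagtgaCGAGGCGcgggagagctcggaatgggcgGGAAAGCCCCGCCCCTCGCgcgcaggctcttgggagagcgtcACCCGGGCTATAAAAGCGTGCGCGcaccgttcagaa
Snhg5: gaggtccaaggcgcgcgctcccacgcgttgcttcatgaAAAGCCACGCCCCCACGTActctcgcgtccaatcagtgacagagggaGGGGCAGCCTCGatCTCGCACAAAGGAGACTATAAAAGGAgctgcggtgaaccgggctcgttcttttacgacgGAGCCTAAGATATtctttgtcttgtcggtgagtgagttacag
Snhg15: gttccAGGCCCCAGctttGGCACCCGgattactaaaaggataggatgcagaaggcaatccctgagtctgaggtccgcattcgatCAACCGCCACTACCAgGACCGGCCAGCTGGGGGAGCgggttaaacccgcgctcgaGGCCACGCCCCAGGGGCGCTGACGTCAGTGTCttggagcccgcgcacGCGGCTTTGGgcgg
Kcnq1ot1: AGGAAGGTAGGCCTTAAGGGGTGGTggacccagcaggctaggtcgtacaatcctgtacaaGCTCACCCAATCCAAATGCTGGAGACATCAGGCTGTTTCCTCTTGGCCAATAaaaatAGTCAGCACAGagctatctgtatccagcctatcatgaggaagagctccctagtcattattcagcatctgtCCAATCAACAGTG
Meg3: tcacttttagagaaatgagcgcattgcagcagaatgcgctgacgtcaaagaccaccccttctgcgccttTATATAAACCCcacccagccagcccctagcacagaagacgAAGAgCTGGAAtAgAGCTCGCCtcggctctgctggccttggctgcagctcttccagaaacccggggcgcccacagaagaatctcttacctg
Mir22hg: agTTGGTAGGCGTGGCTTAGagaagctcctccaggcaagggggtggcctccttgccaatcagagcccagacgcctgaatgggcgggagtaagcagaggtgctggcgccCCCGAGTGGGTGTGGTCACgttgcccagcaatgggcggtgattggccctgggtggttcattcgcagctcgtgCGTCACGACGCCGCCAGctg
6720427I07Rik: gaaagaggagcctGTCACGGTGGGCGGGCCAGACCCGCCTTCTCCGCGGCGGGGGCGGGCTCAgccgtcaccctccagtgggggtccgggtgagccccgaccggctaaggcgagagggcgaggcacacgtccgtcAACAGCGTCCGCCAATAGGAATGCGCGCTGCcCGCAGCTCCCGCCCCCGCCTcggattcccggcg
The capitals in Neat1 and Meg3 include a TATAAA just before the annotated start, in footprints centred at -28 and -27 bp from it. In Snhg8 a protected TATAAA lay downstream of the annotated start, in a footprint centred at 41.5 bp. In Snhg5 a protected TATAAA lay in a footprint centred at 5.5 bp. In Kcnq1ot1, the 3 CCAAT sequences of the printed stretch were all in capitals. In Snhg15 a cAMP response element, TGACGTCA, was protected in both animals. In 6720427I07Rik the protected letters hold GC boxes (GGGCGG or its complement) and a CCAAT. Other matches in the printed runs lay outside the capitals. Among them were the TGACGTCA of Meg3, the CCAAT of Snhg5 and of Snhg8, and the GC boxes and CCAAT of Mir22hg.

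Most lncRNA promoters had no peak in the bladder. A peak touched 1355 of 7038 windows (19.3%) in replicate 1 and 1264 (18.0%) in replicate 2, a mean of 18.6% ± 0.914 (SD, n = 2). Over all autosomal genes the shares were 34.2% in replicate 1 and 33.5% in replicate 2. A peak was present in both animals at 1115 lncRNA promoters, or 15.8%, against 32% of all autosomal genes. These 1115 are called open here. They comprised 728 lincRNA, 266 antisense and 121 processed_transcript genes, in 1080 separate stretches. A peak was found only in replicate 1 at 240 promoters and only in replicate 2 at 149, and 5534 (78.6%) had a peak in neither animal. In bulk tissue, a low peak because few cells had the site open and a low peak because each cell was cut less cannot be told apart.

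Protein-coding promoters were open far more often. The share of lncRNA promoters with a peak minus that of protein-coding promoters was -44.0 percentage points in replicate 1 (19.3% against 63.3%) and -44.5 points in replicate 2 (18.0% against 62.4%). The mean difference was -44.3 ± 0.306 points (SD, n = 2), so it was many times the spread between the animals. Both animals had a peak at 15.8% of lncRNA promoters and at 60.9% of protein-coding promoters. Open lncRNA promoters were also found again less often. Of those with a peak in replicate 1, 82.3% had one in replicate 2, and 88.2% were found again in the other direction, compared with 96.2% and 97.5% for protein-coding promoters. Peaks seen at lncRNA promoters in a single animal were low, with median heights of 0.525 in replicate 1 and 0.433 in replicate 2, close to the 0.553 and 0.442 of such peaks at protein-coding promoters.

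The peaks gathered at the annotated starts. A peak covered the 5' end itself in 8.84% of lncRNA genes in replicate 1 and in 8.34% in replicate 2. At 2000 bp upstream of the 5' end, 1.48% and 1.41% of the genes lay in a peak. Protein-coding genes reached 46.5% and 46.7% at the 5' end, and 1.41% and 1.49% at 2000 bp upstream. Coverage of lncRNA genes was highest 50 bp upstream of the start in both animals, at 9.41% and 8.72%.

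**Figure D1:**
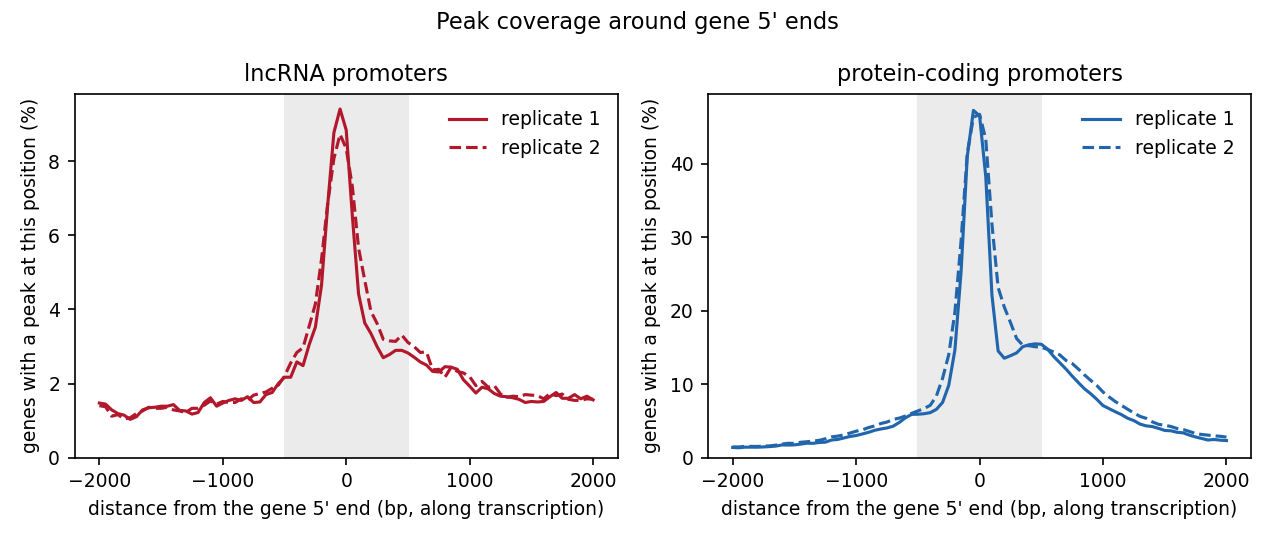
Share of genes (%, vertical axis) with a peak at each position from 2000 bp upstream to 2000 bp downstream of the 5' end (horizontal axis, bp), for lncRNA promoters on the left and protein-coding promoters on the right, with a line for each replicate and the 500 bp on either side shaded. Both classes have a top at the start, at 9.41% and 8.72% for lncRNA promoters, and the vertical scales of the panels differ.

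Where lncRNA promoters were open, their peaks were lower, farther from the start and narrower in accessible bases than those of protein-coding genes. The median height of the highest peak was 1.32 in replicate 1 and 1.04 in replicate 2 (mean 1.18 ± 0.200, SD, n = 2). For open protein-coding promoters it was 5.17 and 3.70 (4.44 ± 1.04, SD, n = 2). The middle 50% of lncRNA heights ran from 0.758 to 2.72 in replicate 1 and from 0.629 to 2.04 in replicate 2. Heights above 5 were reached by 130 lncRNA promoters in replicate 1 and by 64 in replicate 2, and heights above 10 by 38 and 2. The highest peak had its middle a median of 136.5 bp from the lncRNA start in replicate 1 and 144.5 bp in replicate 2, against 67.5 and 82.5 bp at protein-coding promoters. It lay on the upstream side at 62.2% and 59.0% of open lncRNA promoters. A peak covered the 5' end of 49.1% and 50.2% of them, against 75.02% and 76.5% of open protein-coding promoters. Bases with a false discovery rate of the cut rate up to 0.001 numbered a median of 241 and 230 per lncRNA window, against 624 and 728 per protein-coding window, and 15.5% and 20.2% of open lncRNA windows had none.

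The 10 highest lncRNA promoters had heights of 15.2 or more in replicate 1 and 8.15 or more in replicate 2. The first, Gm42418 (chromosome 17, start 39846958), stood apart with 62.7 in replicate 1 and 92.2 in replicate 2, a mean 4.88 times that of the next. GENCODE types it as a lincRNA, but RefSeq lists the locus as the pseudogene Rn18s-rs5, a relative of the ribosomal RNA genes. Without it the heights of the 10 ran from 15.2 to 21.7 in replicate 1 and from 8.15 to 10.9 in replicate 2. 1700096K18Rik followed with 21.7 and 9.99, then Gm15408 with 17.9 and 10.9, and 6720427I07Rik with 19.1 and 8.73. The others were 9430037G07Rik (17.6 and 9.47), Gm10010 (16.3 and 9.68), 1700028E10Rik (16.8 and 8.92), Mir22hg (17.3 and 8.15), Snhg8 (15.7 and 9.07) and 1700113A16Rik (15.2 and 9.29). Replicate 1 was the higher animal in 9 of the 10. A small RNA gene lay inside 4 of them, and 9 had CpG-rich windows with an observed over expected CpG ratio above 0.6. Little is known of most of these genes beyond their annotation.

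Named lncRNAs of known function were mostly open. Of a list of 72 such genes, 42 were among the promoters studied, while 15 lay within 2 kb of a protein-coding start, 11 were not found under that symbol and 4 had another gene type. A peak was present in both animals at 25 of the 42 (59.5%), against 15.8% of all lncRNA promoters and 32% of all autosomal genes. The list holds well-studied genes and was not drawn to stand for lncRNAs in general. It was also chosen with earlier results of these data known, so its share cannot show that known lncRNAs are open more often. The 15.8% and 32% are also the background for the group counts below, which rest on few genes each. H19 (0.576) and Nespas (0.821) had a peak only in replicate 1. Mir17hg (2.65), Mir9-3hg (0.798), Mir124a-1hg (0.391) and Lncenc1 (0.357) had one only in replicate 2, and 11 had none. Of the 25, 20 exceeded the median height of open lncRNA promoters in both animals, and 23 had at least 1 footprint found in both. Such a footprint was present at 67.4% of all open lncRNA promoters and at 86.6% of all open autosomal promoters.

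**Figure D2:**
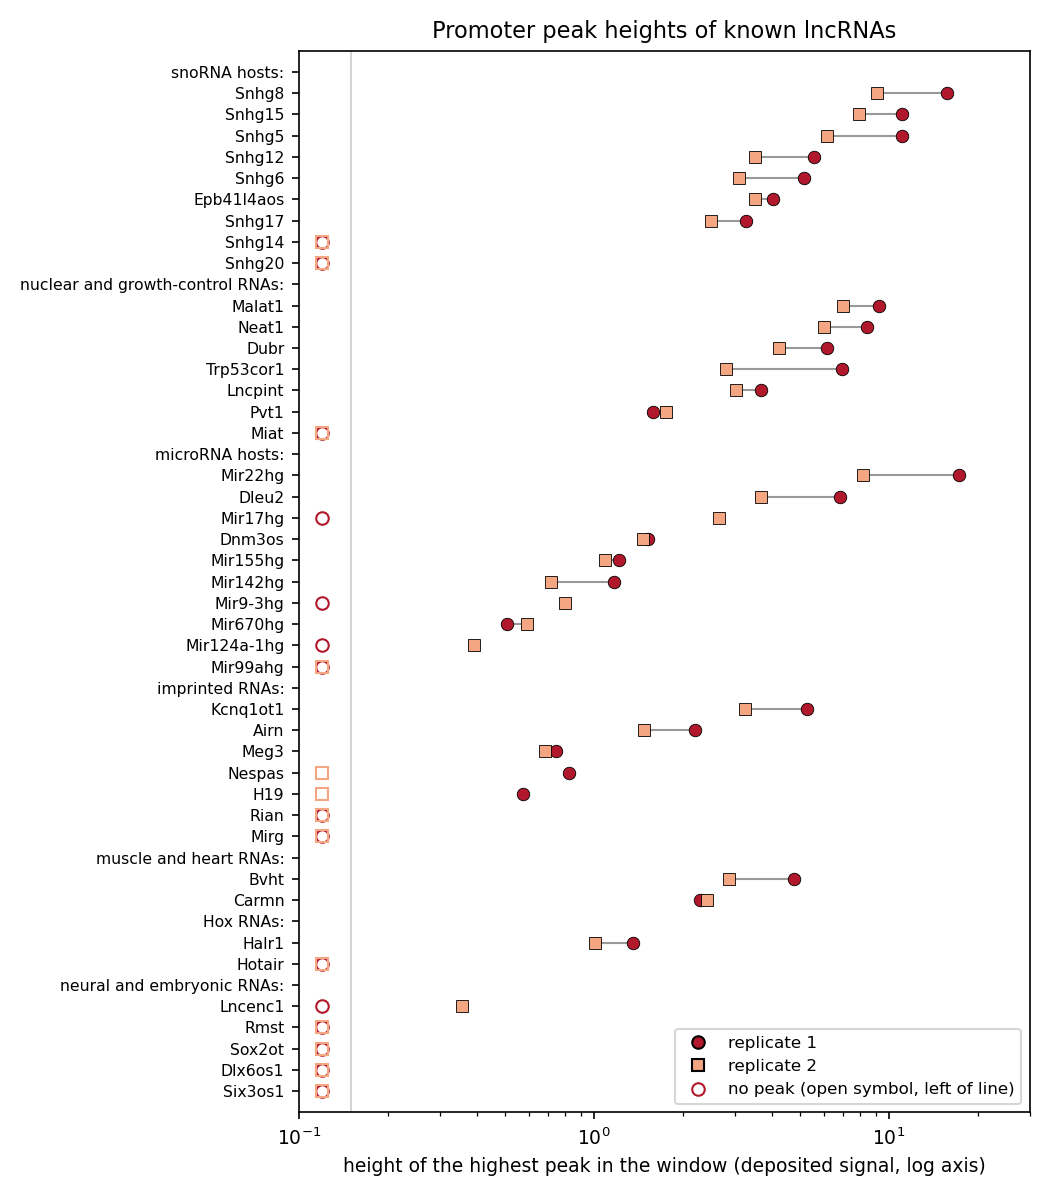
Height of the highest peak (deposited signal, log axis) in replicate 1 (circle) and replicate 2 (square) at the promoters of the 42 known lncRNAs, by group. Open symbols left of the grey line mark animals without a peak; Snhg8 and Mir22hg are the highest, and the neural and embryonic group at the foot has 1 peak in 1 animal.

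Genes known as hosts of small nucleolar RNAs, whose introns release the guides of ribosomal RNA modification, were among the highest of the named groups. The group was set by gene name, and the annotation places only a microRNA inside one of them, Snhg20. A peak was present in both animals at 7 of 9, with median heights of 5.58 and 3.52. Snhg8, the host of Snora24, had 15.7 and 9.07. Snhg15 had 11.1 and 7.94, and Snhg5 had 11.1 and 6.16. These were several times the medians of 1.32 and 1.04 over all open lncRNA promoters. Snhg12 (5.58 and 3.51), Snhg6 (5.16 and 3.09), Epb41l4aos (4.06 and 3.52) and Snhg17 (3.28 and 2.49) were lower but also above those medians. Snhg14, the long imprinted transcript that carries clusters of small nucleolar RNAs in neurons, and Snhg20 had no peak in the window.

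Nuclear and growth-control RNAs were open in both animals at 6 of 7 promoters, with median heights of 6.56 and 3.64. Malat1, a nuclear speckle RNA, had 9.22 in replicate 1 and 7.01 in replicate 2. Its neighbour Neat1, the scaffold of paraspeckles, had 8.42 and 6.01. The highest Neat1 peak had its middle at -412.5 and -212.5 bp from the start, and it is the same peak as that of the divergent gene Frmd8os. Trp53cor1 (lincRNA-p21), a p53-induced RNA next to Cdkn1a, had 6.95 and 2.81, so that the animals differed more than for most open lncRNA promoters. Dubr had 6.16 and 4.23, and Lncpint, another p53-induced RNA, had 3.69 and 3.04. Pvt1, the neighbour of Myc, had 1.59 and 1.75 and was one of 3 named genes with the higher value in replicate 2. Miat had no peak.

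MicroRNA hosts were divided. Of 10 listed hosts, 6 had a peak in both animals, 3 in replicate 2 only and 1 in neither. Mir22hg had 17.3 and 8.15, and Dleu2, which carries miR-15a and miR-16-1, had 6.80 and 3.69. The remaining open hosts were lower than these, and only Dnm3os exceeded the medians of 1.32 and 1.04 over all open lncRNA promoters in both animals. Dnm3os, a mesenchymal RNA that carries miR-199a-2 and miR-214, had 1.52 and 1.46. Mir155hg (1.22 and 1.09) and Mir142hg (1.17 and 0.713) carry microRNAs of blood cells, and Mir670hg had 0.505 and 0.595. Mir17hg had a height of 2.65 in replicate 2 and no peak in replicate 1. The peak of replicate 2 had its middle at -528.5 bp, so it only reached into the window from its edge.

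Imprinted lncRNAs were open at 3 of 7 promoters, too few genes to set them apart from the 32% of all autosomal genes. The count leaves out Snhg14, which was grouped above with the hosts and had no peak. Kcnq1ot1, which is made from the paternal allele and silences neighbours such as Cdkn1c in cis, had 5.29 and 3.24. Airn, the paternal antisense RNA of Igf2r, had 2.19 and 1.48. Meg3, a maternally expressed RNA, had a low peak of 0.742 and 0.679, although its protected TATAAA was found in both animals. Rian and Mirg, which follow Meg3 in the same imprinted domain, had no peak at their annotated starts. H19 had a peak of 0.576 in replicate 1 only.

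Among listed lncRNAs that met the distance rule, both muscle and heart RNAs were open, and no neural or embryonic one was open in both animals. Mhrt, a listed heart RNA left out by the rule at 1751 bp from a Myh6 start, had no peak in either animal. Carmn, a smooth muscle and heart RNA, had 2.29 and 2.41, and Bvht, a cardiac RNA next to it, had 4.77 and 2.87. The highest Bvht peak lay 298.5 and 228.5 bp downstream of the annotated start. Of the 5 neural or embryonic lncRNAs, Rmst, Sox2ot, Dlx6os1 and Six3os1 had no peak, and Lncenc1 had 0.357 in replicate 2 only. Of the Hox lncRNAs, Halr1 had 1.36 and 1.01, in a peak centred at -578.5 and -588.5 bp from the start, and Hotair had none.

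Over all 7038 promoters, genes that host a small RNA were open more often than others. A peak in both animals was found at 20 of 50 hosts of small nucleolar RNA genes (40.0%) and 37 of 91 hosts of microRNA genes (40.7%). The share was 15.3% of the 6894 genes with neither and 32% of all autosomal genes. The hosts also had higher CpG ratios, with medians of 0.293 and 0.328, against 0.223 for genes with neither. The part played by CpG content was not tested. A further 3 genes host both kinds and had no peak. With them the shares were 20 of 53 (37.7%) and 37 of 94 (39.4%). Hosts of small nucleolar RNAs had median heights of 5.37 and 3.51, microRNA hosts 2.38 and 1.46, and the others 1.29 and 0.994. A peak covered the 5' end at 95% and 80.0% of the open hosts of small nucleolar RNAs, against 48.0% and 49.0% of open genes with no small RNA inside. Further hosts of this kind, chosen after their values were seen, were Dancr (8.71 and 4.21, Snora26), 1810032O08Rik (10.7 and 7.71, Snord1a to Snord1c) and 2410006H16Rik (10.9 and 5.99, with Snord49a, Snord49b and Snord65).

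Several open microRNA hosts are described next, some around microRNAs known from epithelium, and these too were chosen after their values were seen. Hosts of other microRNAs were open too, at higher and lower heights. Among these were Gm4258 (3.87 and 3.13, miR-181a-1 and miR-181b-1) and A330076H08Rik (0.466 and 0.323, miR-344-2). 4631405K08Rik, around the epithelial miR-205, had 2.38 and 1.27. Gm15884, around miR-141 and miR-200c of the epithelial miR-200 family, had 3.22 and 1.23. AL805899.1, around miR-31, had 1.46 and 1.06. A330023F24Rik, the host of miR-29b-2 and miR-29c, had 7.70 and 5.62. For let-7, 6720427I07Rik with let-7a-1, let-7f-1 and let-7d had 19.1 and 8.73, Lncppara with let-7c-2 and let-7b had 3.48 and 2.73, and Gm49317 with miR-100, let-7a-2 and miR-125b-1 had 5.86 and 3.88. The mature microRNAs, from RefSeq on GRCm38.p6, are shown with bases 2 to 8, the seed that pairs with targets, in capitals.
let-7a-5p: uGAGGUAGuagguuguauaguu
let-7f-5p: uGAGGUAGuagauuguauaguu
let-7d-5p: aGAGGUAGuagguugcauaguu
let-7c-5p: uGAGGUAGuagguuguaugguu
let-7b-5p: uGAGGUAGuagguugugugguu
miR-29b-3p: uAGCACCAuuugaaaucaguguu
miR-29c-3p: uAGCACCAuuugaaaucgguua
miR-15a-5p: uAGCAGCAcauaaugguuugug
miR-16-5p: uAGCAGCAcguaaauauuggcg
miR-141-3p: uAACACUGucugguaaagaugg
miR-200c-3p: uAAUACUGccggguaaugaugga
miR-205-5p: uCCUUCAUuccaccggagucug
miR-22-3p: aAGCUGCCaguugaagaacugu
The let-7 microRNAs of 6720427I07Rik and Lncppara share the seed GAGGUAG. The miR-29 pair of A330023F24Rik shares AGCACCA, and the pair of Dleu2 shares AGCAGCA. The capitals of miR-141 and miR-200c differ, so Gm15884 carries microRNAs with distinct seeds. DNase-seq shows the opening of a host's promoter and not the level of its microRNA, and intronic promoters closer to the hairpins were not examined.

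Gene type, distance and annotation quality sorted the promoters further. The share open in both animals was 27.9% for processed_transcript genes, 15.3% for lincRNA genes and 14.4% for antisense genes. It was 20.4% at 2 to 5 kb from the nearest protein-coding start, 19.5% at 5 to 10 kb, 18.3% at 10 to 50 kb, 14.6% at 50 to 200 kb and 9.30% beyond 200 kb. Median heights beyond 200 kb were 0.868 and 0.646, the lowest of these classes. Genes whose best transcript had support level 1, the best level of GENCODE, were open in 19.7% of cases, and those at level 5 in 9.21%. Promoters that overlapped the window of another of these lncRNA genes on the opposite strand, as Neat1 and Frmd8os do, were open in 28.1% of cases (66 of 235), against 15.4% of the rest. Single-exon genes (16.8%) and spliced genes (15.8%) were close.

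**Figure D3:**
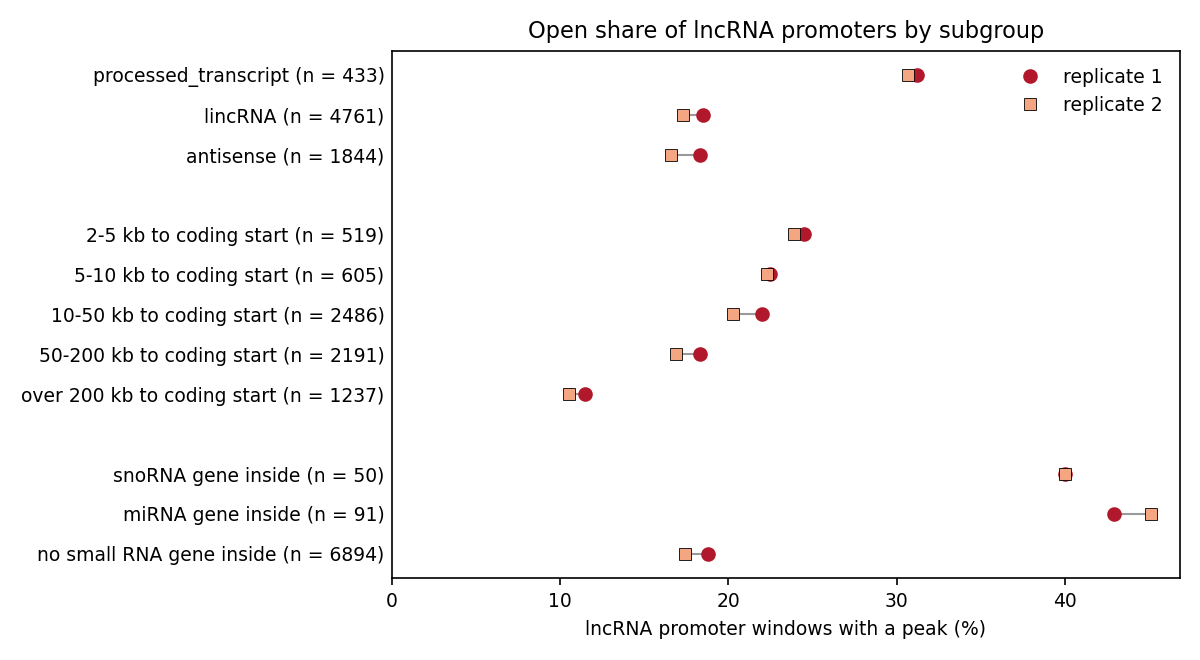
Share of lncRNA promoter windows with a peak (%, horizontal axis) in replicate 1 (circle) and replicate 2 (square), by gene type, distance to the nearest protein-coding start and small RNA gene inside, with the number of promoters in each class. Hosts of small nucleolar RNA or microRNA genes are at 40.0% or above in both animals, and promoters beyond 200 kb are the lowest of the classes drawn, at 11.5% and 10.5%; 3 genes that host both kinds, none with a peak, are not drawn.

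The distance rule itself drew a line through a steep slope. At 2 to 3 kb from a protein-coding start, just inside the rule, 22.4% of 201 lncRNA promoters were open in both animals. At 1 to 2 kb, just outside it, 31.9% of 320 were, and within 1 kb 72.1% of 1517. Annotations also disagreed on what is coding. RefSeq places a protein-coding start within 2 kb of 249 of the 7038 promoters (3.54%), and these were open in 32.5% of cases, against 15.2% of the others. Among the 1115 open promoters 81 (7.26%) were such cases, and 24 belonged to genes that RefSeq itself types as protein-coding. One of these 24 was Zswim6, which GENCODE M21 types as processed_transcript, with heights of 14.8 and 8.37.

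CpG content was higher at open than at closed lncRNA promoters, and lower than at open protein-coding promoters. CpG-rich DNA, in CpG islands, tends to be open in most tissues. The median observed over expected CpG ratio was 0.324 at open and 0.208 at closed lncRNA promoters, against 0.729 and 0.174 at open and closed protein-coding promoters. The ratio exceeded 0.6 at 15.8% of open lncRNA promoters and at 73.1% of open protein-coding promoters. Within like CpG content the classes came closest where CpG was scarce. Below a ratio of 0.4, 11.6% of lncRNA and 16.4% of protein-coding promoters were open in both animals. Between 0.4 and 0.6 the shares were 33.0% and 72.5%, and above 0.6 they were 64.7% and 94.3%. Heights followed the same order, with medians of 1.08 and 0.815 for lncRNA promoters below 0.4 and of 4.57 and 3.11 above 0.6, against 1.42 and 1.07, and 6.50 and 4.44, for protein-coding promoters.

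**Figure D4:**
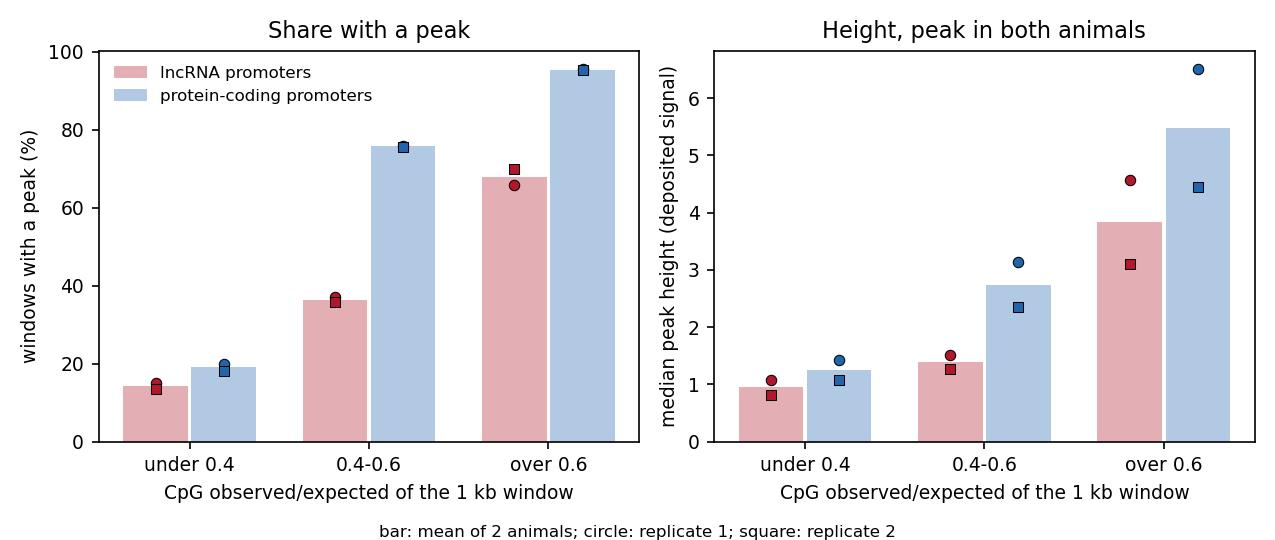
Share of windows with a peak (%, left) and median height at promoters open in both animals (deposited signal, right), by CpG observed over expected ratio, for lncRNA (red) and protein-coding (blue) promoters. Bars are means of the 2 animals, circles replicate 1 and squares replicate 2; lncRNA promoters lie below protein-coding promoters in every class, and least so below a ratio of 0.4.

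Footprints were present at most open lncRNA promoters but recurred less than at protein-coding ones. A footprint lay in the window of 91.6% in replicate 1 and 87.2% in replicate 2 (89.4% ± 3.11, SD, n = 2), a median of 3 per window in each. Open protein-coding windows had a median of 6 in each, so shares with at least 1 shared footprint compare windows with unlike numbers. A footprint found in both animals was present at 752 of 1115 (67.4%), against 90.4% of open protein-coding promoters and 86.6% of all open autosomal promoters. Of 3791 footprints in replicate 1 and 3740 in replicate 2, 50.4% and 52.8% were found again. Counted in this way, the shares were 64.2% and 60.8% at open protein-coding promoters and 63.0% and 59.8% at all open autosomal promoters. Among open lncRNA promoters, the most footprints were shared at Zswim6 with 14, Gm15287 with 13, Gm20732 (a host of miR-30d) with 11, and 1810026B05Rik and Frmd8os with 10 each. At least 5 were shared at 95 promoters and none at 363. Malat1 and Snhg8 had 5 shared footprints each, Neat1, Snhg5 and Mir22hg 7 each, and Dnm3os and Halr1 had none.

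The letters of the windows differed along with CpG content. The GC box GGGCGG was present on either strand in 42.4% of open and 15.5% of closed lncRNA windows. It was present in 85.1% of open protein-coding windows and in 36.5% of all autosomal gene windows. At CpG ratios below 0.4 it was in 26.4% of open and 13.5% of closed lncRNA windows and 42.8% of open protein-coding windows. The CTCF consensus was rare, in 3.14% of open and 0.542% of closed lncRNA windows, 4.29% of open protein-coding windows and 1.90% of all windows. This order held at CpG ratios below 0.4, with 2.56% of open and 0.557% of closed lncRNA windows. The NRF1 consensus was found in 3.32% of open and 0.524% of closed lncRNA windows, 14.2% of open protein-coding windows and 4.45% of all windows. The AP-1 sequence TGANTCA was more frequent at lncRNA promoters, in 29.96% of open and 28.1% of closed lncRNA windows. It was in 14.4% of open protein-coding windows and 22.5% of all windows. At CpG ratios below 0.4 it was in 36.5% of open and 28.6% of closed lncRNA windows and 27.1% of open protein-coding windows. Above 0.6 these shares were 15.9%, 24.1% and 12.1%, so the order of open and closed lncRNA windows turned round. TATAAA was present in 34.98% of open and 48.0% of closed lncRNA windows, 20.7% of open protein-coding windows and 42.4% of all windows. At CpG ratios below 0.4 it was in 37.2% of open and 48.7% of closed lncRNA windows and 31.4% of open protein-coding windows. The ETS sequence CCGGAAG was present in 13.9% of open and 6.00% of closed lncRNA windows, 28.4% of open protein-coding windows and 11.96% of all windows. At CpG ratios below 0.4, open lncRNA and open protein-coding windows were close, at 0.712% and 0.750% for NRF1 and 9.12% and 9.38% for ETS. Above 0.6 the shares were 13.1% and 17.9% for NRF1 and 28.4% and 32.5% for ETS. The others searched were CCAAT, the E-box CACGTG, the TEAD sequence GGAATG, the GATA sequence AGATAA, the FOX sequence TGTTTAC, the cAMP response element and the KLF and YY1 consensus. A match is a description of the letters and not evidence of binding.

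Within shared footprints, extended by 5 bp, the lncRNA promoters had fewer GC boxes and more AP-1 and CTCF letters. A GC box was held by 13.4% of 1934 shared footprints at lncRNA promoters and by 25.7% of 45954 at protein-coding promoters. AP-1 was held by 27 (1.40%) against 0.281%, CTCF by 24 (1.24%) against 0.581%, and TATAAA by 23 (1.19%) against 0.416%. Any of the 14 sequences searched was present in 28.5% against 42.0%. At CpG ratios below 0.4 AP-1 was held by 2.55% against 1.43%, CTCF by 1.70% against 1.28% and a GC box by 4.73% against 11.3%. These are counts in a single pair of animals, and some rest on few footprints.

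The heights of the animals ran in parallel. Across the 1115 open lncRNA promoters Spearman's coefficient was 0.94, which describes this pair of libraries only, since promoters are not replicates. Replicate 1 was higher at 933 (83.7%), with a median log2 ratio of replicate 1 over replicate 2 of 0.38. Over all 82258 pairs of overlapping peaks it was 0.35. Relative to that, lncRNA promoters stood at 0.03 (SD 0.41 across promoters) and open protein-coding promoters at 0.19. A difference beyond 2-fold relative to all peaks was found at 19 lncRNA promoters, or 1.70% of 1115, against 1.39% of all open autosomal promoters. Of the 19, 13 were higher in replicate 1 and 6 in replicate 2. Open protein-coding promoters had such a difference at 128 of 12666 (1.01%), 33 higher in replicate 1 and 95 in replicate 2. The highest peak of the window was the same overlapping peak in both animals at 1071 (96.1%).

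**Figure D5:**
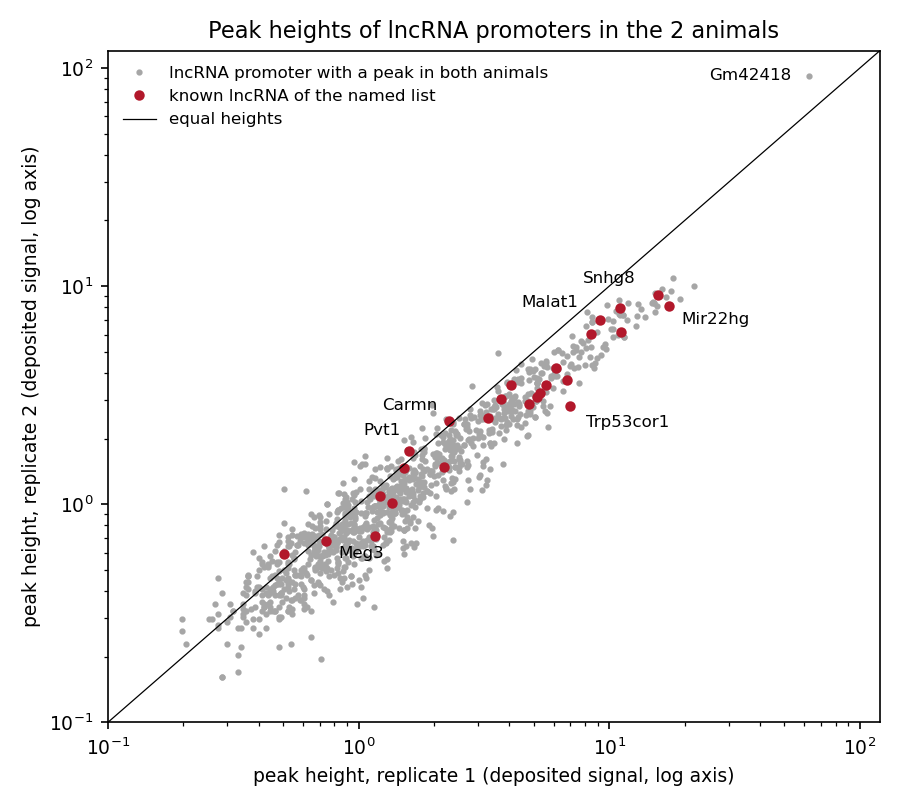
Peak height in replicate 1 (horizontal, deposited signal, log axis) against replicate 2 (vertical, log axis) at the 1115 lncRNA promoters open in both animals, with named known lncRNAs in red and the line of equal heights. Most points lie below the line, 83.7% of them with the higher value in replicate 1, and Gm42418 stands apart at 62.7 and 92.2.

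The promoters that differed most between the animals were mostly low. Toward replicate 1, 1700019J19Rik had 2.38 and 0.688, AC115789.1 had 1.15 and 0.340, Gm49735 had 0.987 and 0.348, and Rbakdn had 1.04 and 0.374, with log2 ratios relative to all peaks of 1.44, 1.41, 1.15 and 1.13. Toward replicate 2, Gm14055 had 0.276 and 0.459, Gm2762 had 0.505 and 0.824, and 2610037D02Rik had 0.963 and 1.56, at -1.08, -1.06 and -1.05. At Gm37892 (0.710 and 0.195), Gm13067 (0.505 and 1.17) and Gm9869 (0.616 and 1.16) the highest peaks of the animals did not overlap, so different sites were compared. Without replicates within an animal these differences have no error of their own.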

How the data were processed

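Both libraries are DNase-seq of bladder tissue, 1 per animal, on mm10 per the labels. Per the deposited description files, the authors called peaks and footprints in each animal separately; which aligner and callers they used is not given in the sources used here. The authors' peak height is a signal of unstated scaling. Deposited p-value type columns give, per base, a cut rate false discovery rate of at most 0.05 and, per footprint, the constant 0.01.

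Of each animal's peak lists the longer one served. A promoter was open when a peak shared at least 1 bp with the gene 5' end ± 500 bp, the outermost annotated start, so a gene that uses an inner start can appear closed. Its height was that of the highest such peak. A footprint had to lie wholly in the window and was shared when footprints of the animals overlapped by at least 1 bp. Protein-coding starts were those of transcripts of type protein_coding in GENCODE M21. Height ratios were taken relative to the median of all pairs of overlapping peaks. Motifs were exact letters on both strands. Only the height column of the peak lists was used.

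Named genes were the members of a list of 72 known lncRNAs, the 10 highest open promoters, the 5 that differed most in each direction and the 5 with the most shared footprints, with 1 per set of overlapping windows. Members and lists were chosen with earlier results of these data known. Python 3.11.15 was used with pysam 0.24.0, pandas 2.3.3, scipy 1.17.1, numpy 2.4.6, matplotlib 3.10.9 and samtools 1.23.1, and overlap counting was tested on simulated data. Chromosomes 1 to 19 were kept.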

Additional observations from a re-analysis of the deposited data

How the results depend on the processing

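No paired analysis was possible because both animals belong to a single group. Depth limits low peaks, and heights cannot be compared beyond these libraries because their scaling is unknown. A subset by RefSeq starts was added after seeing the data. Of 90 recomputed values, 37 moved by more than their spread and 53 did not. The spread was mostly that between replicates. For the 13 values of the ratio between animals it was the SD across promoters. That is too wide to show a shift of a median, so their place among the 53 says nothing of their stability. For the 12 values of the share with a shared footprint it was a 95% binomial interval, which treats promoters as replicates. The cause of the moves was not tested.

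The share with a peak (18.6%) became 19.9% with any transcript start of a gene, 11.3% with the higher 50% of peaks, 8.60% where a peak had to cover the 5' end, 17.5% where its midpoint had to lie in the window, 13.2% with the smaller peak list, 23.1% with 1000 bp and 15.4% with 250 bp on either side. In the same order, the share in both animals (15.8%) became 17.1%, 9.97%, 6.64%, 14.8%, 11.2%, 19.8% and 12.9%. The difference from protein-coding promoters (-44.3 points) became -44.9 with the higher 50% of peaks, -38.2 with cover of the 5' end, -45.0 with the smaller list, -42.3 with 1000 bp and -44.9 with 250 bp. It became -45.1 and -44.7 beyond 10 and 5 kb, -42.5 with overlapping windows merged and -44.9 without promoters near RefSeq protein-coding starts, so its sign held in each. The median height (1.18) became 1.89 with the higher 50% of peaks and 1.63 with the smaller list. The share with a footprint (89.4%) became 96.0%, 95.9% and, with cover of the 5' end, 95.3%. The share with a shared footprint (67.4%) became 87.5% with the higher 50% of peaks, 84.3% with the smaller list, 77.9% with cover, 70.5% with the midpoint rule, 71.3% with 1000 bp, 63.7% with 250 bp and 57.1% where footprints had to overlap by 50% of the longer one.

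Leaving out either animal, with open promoters then called in the other alone, gave 18.0% to 19.3% for the share with a peak, -44.5 to -44.0 points for the difference, 0.909 to 1.11 for the median height and 82.5% to 87.0% for footprints. The median relative log2 ratio between animals (0.03) stayed between 0.01 and 0.05, apart from -0.16 relative to protein-coding promoters and 0.38 with no scaling. The SD of 0.41 describes single promoters and not their median, so it cannot show whether these values moved.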

Other observations

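Known lncRNAs that share a promoter region with a protein-coding gene were measured in the same way, although the distance rule leaves them out. Of 15 listed genes within 2 kb of a protein-coding start, 9 had a peak in both animals, 2 in replicate 1 only, 1 in replicate 2 only and 3 in neither. Over all 1837 lncRNA genes within 2 kb of a protein-coding start, 65.1% had a peak in both animals, so the listed genes stood near the level of their class. Gas5, a host of small nucleolar RNAs 138 bp from a start of Zbtb37, had heights of 11.5 in replicate 1 and 6.28 in replicate 2. Tug1, 86 bp from Morc2a, had 10.8 and 5.71, and Zfas1, 81 bp from Znfx1, had 9.62 and 6.79. Crnde, near Irx5, had 8.68 and 6.29. Fendrr, the divergent partner of the mesenchymal factor gene Foxf1, had 0.766 and 2.23 and so was higher in replicate 2. These peaks cannot be assigned to the lncRNA rather than to its coding neighbour.

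Hox genes pattern the body axis, and 10 lncRNA promoters beyond 2 kb had one as their nearest protein-coding gene. Of these, 3 were open in both animals (30%), against 15.8% of all lncRNA promoters and 32% of all autosomal genes. Hoxd3os1, 4203 bp from a Hoxd3 start, had 7.06 and 4.4. Hoxb3os had 1.07 and 1.53, and Halr1 had 1.36 and 1.01. Gm11535, whose nearest coding gene is Hoxb13, had a peak in replicate 2 only (0.323), and Hotair, Hoxb5os, Gm53, Gm14396, Gm14424 and Gm14426 had none. More generally, lncRNA promoters whose nearest protein-coding gene was open at its 5' end were themselves open in 16.7% of 4919 cases. Where it was not open, the share was 13.8% of 2119 cases. The 5' end is the outermost start of that gene and need not be the start that lay nearest. At 2 to 5 kb the shares were 23.4% and 14.9%, and beyond 200 kb they were 9.94% and 7.53%. Over the 822 pairs in which both were open, Spearman's coefficient between their mean heights was 0.11, a description with no test.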
